A study of Mus musculus and Macaca mulatta with 39 samples.

Results

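The 390 loci described here are broad domains of H3K4me2 in the embryonic mouse cortex over which H3K27ac covers less than 50% of the length. Called H3K4me2 regions of 8 mouse lists were merged wherever they overlapped or touched, which gave 91956 loci. Of these, 23838 held a region in each of the 8 lists, 970 of which were 10000 bp or longer, 947 of them on autosomes. In 390 of the 947, the H3K27ac-covered length averaged over 8 H3K27ac lists was under 50% of the locus. The other 557 broad loci, at 50% or more, serve for comparison. The domains were thus selected on their H3K4me2 length, their presence in every H3K4me2 list and their mean H3K27ac share, and these values are given as descriptions. H3K4me2 comparisons between stages or areas are descriptive too, also where calls are printed, because the same lists set the domain length. No difference between stages or areas was part of the rule. Its H3K27ac limit averages 4 lists of E17.5 and 2 of E11.5, however, so it restricts rises by E17.5 more than falls.

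Cortex of C57BL6J mouse embryos was profiled by chromatin immunoprecipitation and sequencing for both marks, in a series on promoter and enhancer activity during cortex formation. The 4 tissues were whole cortex at embryonic day 11.5 (E11.5) and E14.5 and the frontal and occipital cortex at E17.5. Each had 2 biological replicates per mark, and the marks of a replicate shared an input, per the series' design text. The labels name no treatment and do not state whether embryos were pooled.

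H3K4me2, the dimethylation of a lysine in the histone H3 tail, occurs at active as well as poised promoters and enhancers. H3K27ac, an acetylation of another lysine of the same tail, marks the promoters and enhancers that are in use. Broad domains of H3K4 methylation are known at genes that set cell identity and at regulators of development, and during cortex formation progenitors give way to neurons. Cortex is a mixture of cells, so a mark present in fewer cells and a weaker mark in each cell cannot be told apart.

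The domains were 10000 to 39125 bp long, with a median of 11950 bp, and covered 5.20 Mb in all. They lay on all 19 autosomes, with 11 to 29 on each. The H3K27ac-covered share, averaged over the 8 lists, ran from 3.61% to 49.8% with a median of 37.6%. It was below 25% in 57 domains and below 10% in 6. Just inside the length limit were chr10:79443451-79453450 and chr6:96061276-96071275, both of 10000 bp, and just outside it chr10:119850251-119860225 and chr14:103740376-103750350, both of 9975 bp. The domains nearest to the H3K27ac limit were chr2:172757076-172767100 at 49.84% and chr10:79443451-79453450 at 49.81%. The loci just beyond it were chr11:31898751-31935975 at 50.01% and chr2:4320476-4331600 at 50.06%.

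Most of the domains were broad in some lists rather than in all. Covered H3K4me2 reached 10000 bp within the domain in 37 and 122 domains in the E11.5 lists, in 35 and 79 in the E14.5 lists, in 137 and 105 in the frontal lists and in 184 and 305 in the occipital lists. It did so in all 8 lists in 16 domains, in exactly 1 list in 136 and in no single list in 30. In 100 domains the 1 such list was E17.5 occipital replicate 2. That list, the longest of the H3K4me2 lists at 162.2 Mb against 65.3 to 112.8 Mb in the others, covered a median of 98.7% of a domain, and it covered 108 domains in full. Without it the rule gave 229 domains, and 224 of the 390 overlapped one of them. Without E11.5 replicate 2 it gave 294, and with any other replicate left out it gave 367 to 408.

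**Figure D1:**
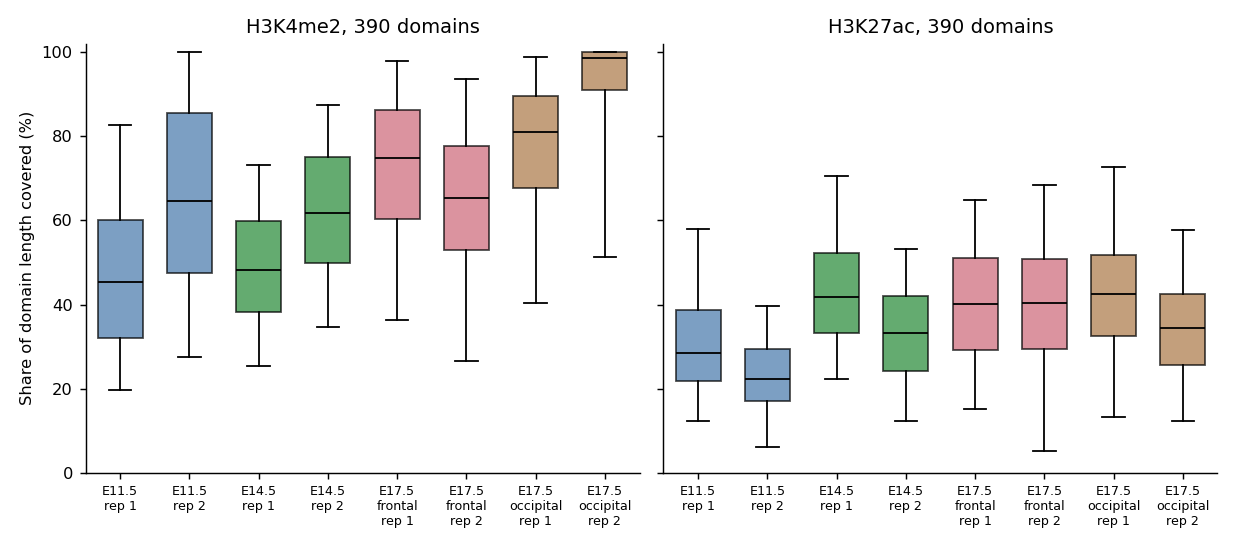
Share of the length of each of the 390 domains that is covered by called H3K4me2 (left) and H3K27ac (right) regions, in each list (boxes: quartiles and median, whiskers: 5th to 95th percentile). H3K4me2 medians run from 45.4% to 98.7% and are highest in E17.5 occipital replicate 2, and H3K27ac medians run from 22.2% to 42.5% with both E11.5 lists lowest.

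All the domains carried H3K27ac somewhere at some time. A called H3K27ac region overlapped 359 of the 390 in all 8 lists, and the fewest lists for any domain were 3. Both lists of a tissue held H3K27ac in 377 domains at E11.5, 381 at E14.5, 372 in frontal and 377 in occipital cortex, and neither list did in 2, 1, 4 and 3 domains respectively. A low share thus stood for H3K27ac over a limited stretch of the domain in nearly every list, rather than for a domain without it.

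That stretch coincided with the bases that carried H3K4me2 in all 8 lists, referred to here as the core of a domain. The core had a median of 4812.5 bp, or 38.0% of the domain, and was a single piece in 259 domains and several pieces in 131. H3K27ac covered a median of 57.1% to 88.6% of the core, depending on the list, against 0% to 11.1% of the remaining bases. The covered share was higher in the core than outside it in all 8 lists in 351 domains, and in no list in 1. In the comparison loci the core was covered at a median of 68.7% to 100.0% and the remaining bases at 9.2% to 70.4%. A median of 18.9% of a domain, 2375 bp, lay under H3K27ac in all 8 lists and 42.9%, 5251 bp, in none. The matching values of the comparison loci were 34.4% and 3.63%, a difference that the limit on the H3K27ac share builds in.

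H3K27ac sat away from the midpoint of the domains. That midpoint belongs to the merged H3K4me2 locus, whose length rests in many domains on E17.5 occipital replicate 2. Neither this profile nor the sides described below were recomputed without that list. With distance from the midpoint divided into 10 steps, the share of bases under H3K27ac at the midpoint was 18.5% ± 5.54 (SD, n = 2 lists) at E11.5, 28.4% ± 9.39 at E14.5, 31.5% ± 2.07 in frontal and 30.2% ± 6.34 in occipital cortex. At the 7th step it rose to 39.1% ± 5.85, 48.8% ± 6.62, 50.1% ± 0.423 and 48.9% ± 4.23, and at the edge it was 11.2% ± 3.69, 21.4% ± 6.90, 25.4% ± 1.34 and 21.6% ± 5.82. H3K4me2 of the domains showed no such dip in the lists of E14.5 and E17.5, and at E11.5 it covered 56.9% ± 14.9 of the bases at the midpoint and 61.3% ± 10.5 at the 7th step. H3K27ac of the comparison loci stood at 54.3% ± 13.0 of the midpoint bases at E11.5 and 55.8% ± 9.29 at the 7th step, with 83.3% ± 5.98 and 80.1% ± 6.69 at E14.5.

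**Figure D2:**
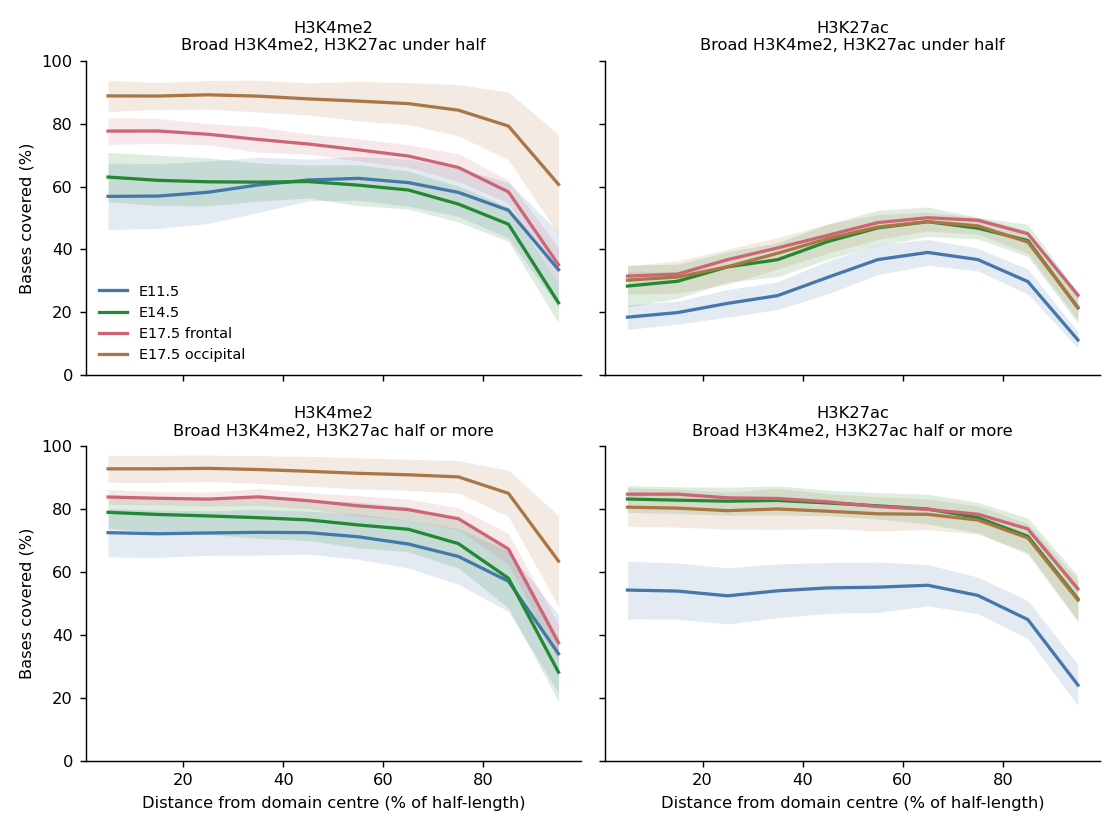
Share of bases covered (vertical axis, %) against the distance from the midpoint to the edge of the locus (horizontal axis, % of that distance), for H3K4me2 (left) and H3K27ac (right) in the 390 domains (top) and the 557 comparison loci (bottom); lines are tissue means and bands span the 2 lists. In the domains the H3K27ac lines dip at the midpoint, to 18.5% at E11.5, and peak at 39.1% to 50.1% on the way to the edge.

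The position away from the midpoint was 1-sided in many domains. Of the H3K27ac-covered bases summed over the 8 lists, a median of 82.3% lay on the fuller side of the midpoint, with quartiles of 64.1% and 96.5%. At least 90% lay on 1 side in 151 domains (38.7%) and at least 75% in 241 (61.8%). The fuller side was the same in each of the 8 lists in 267 domains, and in 285 it was the same in every list that held H3K27ac. H3K4me2 of the same domains had a median of 63.0% on its fuller side and at least 75% there in 37 domains. It covered a median of 45.4% to 98.7% of a domain, depending on the list, which limits how much of it can lie on 1 side. The marks are therefore not compared by these values. In the comparison loci the H3K27ac median was 55.8%, and at least 90% lay on 1 side in 1 locus. A locus covered over more than 50% of its length cannot place all of its H3K27ac on 1 side, so this difference between the sets is in part fixed by the rule.

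**Figure D3:**
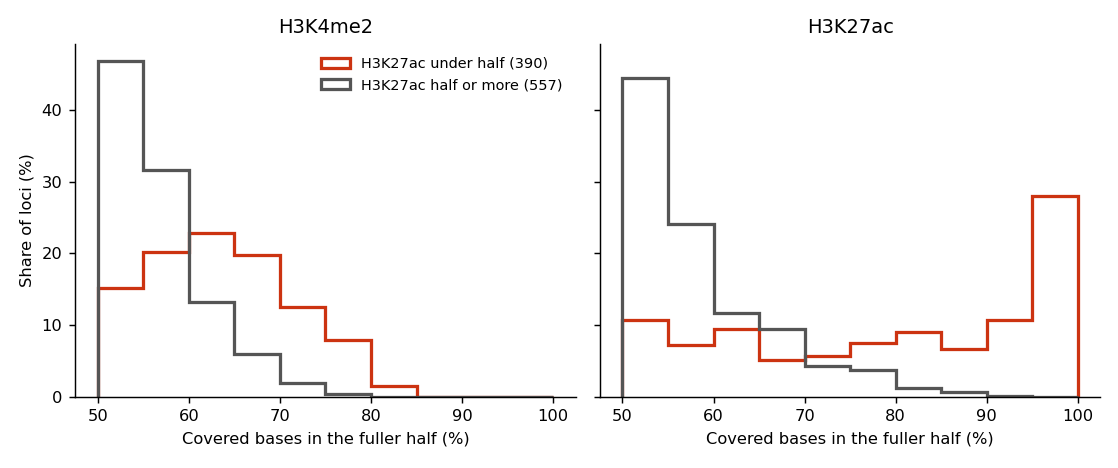
Share of loci (vertical axis, %) against the percentage of covered bases, summed over the 8 lists, that lie on the fuller side of the midpoint, for H3K4me2 (left) and H3K27ac (right). In the 390 domains (red) H3K27ac piles up at 90% to 100%, a range that holds 151 of them, and in the 557 comparison loci (grey) it gathers near 50%.

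Several domains show this form plainly. At chr15:25320051-25349850, a domain of 29800 bp, 98.8% of the H3K27ac bases lay on 1 side, and H3K27ac covered 8075 and 5025 bp at E11.5, 8325 and 6150 bp at E14.5, 7900 and 8875 bp in frontal and 8525 and 8025 bp in occipital cortex. These lists overlapped between all 4 tissues. H3K4me2 there covered 10225 and 11550 bp at E11.5, 11100 and 14100 bp at E14.5, 20575 and 16425 bp in frontal and 22375 and 29650 bp in occipital cortex, with all E17.5 lists above the others (E17.5 against E11.5, log2 change 0.99, SE 0.184, adjusted p = 0.0147, limma; lost without either E11.5 list, or when scaled to list totals at 0.61). At chr5:38541651-38552475, a domain of 10825 bp, H3K27ac covered 2925 to 4800 bp in all lists, of which 98.3% was on 1 side. H3K4me2 around it covered 3825 and 4525 bp at E11.5 and 8800 to 10775 bp in the 6 later lists, without overlap (E14.5 against E11.5, log2 change 1.15, SE 0.115, adjusted p = 0.00754, limma; lost without E11.5 replicate 1, or when scaled to list totals at 1.31). In both domains H3K4me2 covered more bp in later lists, which also set the domain length, while the patch of H3K27ac kept a similar length.

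H3K27ac covered the domains least at E11.5. The median covered share of a domain was 28.4% and 22.2% in the E11.5 lists, 41.9% and 33.3% in the E14.5 lists, 40.1% and 40.5% in the frontal lists and 42.5% and 34.3% in the occipital lists. Both E11.5 lists lay below the other 6, and the lists of E14.5, frontal and occipital cortex overlapped. As tissue means these are 25.3% ± 4.37 (SD, n = 2), 37.6% ± 6.06, 40.3% ± 0.238 and 38.4% ± 5.75. In the comparison loci the same means were 49.4% ± 10.3, 78.7% ± 8.88, 80.4% ± 1.36 and 76.6% ± 9.71. The tissue with the least H3K27ac was E11.5 in 294 of the 390 domains, and the one with the most was frontal cortex in 155, E14.5 in 119, occipital cortex in 81 and E11.5 in 35. This was not counted in other loci, and the mean of the comparison loci was also lowest at E11.5. A median of 800 to 1100 bp separated the replicates of a tissue.

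Between E11.5 and E14.5, 29 domains rose in H3K27ac and none fell (limma on log2 of covered bp plus 200 bp, called at an adjusted p below 0.05 over all 67227 loci tested). The background over all loci was 10.2% called higher and 0.519% called lower, so that 29 of 390 (7.44%) is below it. In all, 109 domains had an unadjusted p below 0.05. The median log2 change was 0.39 in the domains, 0.35 over all loci and 0.58 in the comparison loci, of which 97 rose. Both E14.5 lists exceeded both E11.5 lists in 217 domains, and the reverse held in 9 (35.2% and 2.9% over all loci). Fewer rises were called without E14.5 replicate 1 or E11.5 replicate 2, and more without E11.5 replicate 1. Of the 29 rises, 13 were among the 224 domains that also met the rule without E17.5 occipital replicate 2. That replicate was still in the fit.

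Between E11.5 and E17.5, taken as the mean of frontal and occipital cortex, 103 domains rose and 4 fell (limma, adjusted p below 0.05), against 20.5% called higher and 1.09% called lower over all loci. The share of domains that rose, 26.4%, was above that background, and their median log2 change, 0.43, was below the 0.84 of all loci by 0.42. In the comparison loci 185 of 557 rose and 4 fell, with a median of 0.57. The H3K27ac limit of the rule restricts rises by E17.5 in the domains, and its part in these differences was not tested. All E17.5 lists exceeded both E11.5 lists in 198 domains, and the reverse held in 17 (36.1% and 3.55% over all loci). The count of 103 fell to 39 without E11.5 replicate 2, to 55 and 58 without frontal replicate 1 and 2, and to 60 without occipital replicate 1. Fewer falls were called without E11.5 replicate 1. In the fit with all lists, 57 of the rises were among the 224 domains that also met the rule without E17.5 occipital replicate 2.

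The direction of these H3K27ac differences depends on whether the total length of a list is taken into account. The E11.5 lists covered 85.3 and 63.1 Mb in all and the other H3K27ac lists 107.1 to 169.3 Mb. With covered length scaled to the total of its list, 5 domains were called higher and 23 lower at E14.5 against E11.5, with a median log2 change of -0.34, and 23 were called higher and 173 lower at E17.5 against E11.5, with a median of -0.59. Over all 67227 loci the scaled medians were 0 and 0.40. The scaled background was 7.94% called higher and 1.89% called lower at E14.5, against 1.28% and 5.90% of the domains. At E17.5 it was 16.7% called higher and 23.1% called lower, against 5.90% and 44.4% of the domains, so that falls outnumbered rises over all loci as well. When each list was limited to the same number of its widest regions, the calls were 22 higher and 2 lower at E14.5 and 74 higher and 4 lower at E17.5. The background over the 56486 loci then tested was 9.0% higher and 1.5% lower at E14.5 and 15.8% higher and 2.73% lower at E17.5. Depth was unknown, so its part in the length of the lists was not tested.

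From E14.5 to E17.5, few domains were called in H3K27ac. Of the 390, 1 rose and 2 fell (limma, adjusted p below 0.05), against 3.16% called higher and 0.58% called lower over all loci, and 38 had an unadjusted p below 0.05. The median log2 change was 0.03. All E17.5 lists exceeded both E14.5 lists in 48 domains and the reverse held in 34, against 11.4% and 5.55% over all loci. The count of rises was 5 without E14.5 replicate 1 or without occipital replicate 2 and 0 without occipital replicate 1. The count of falls was 1 without either E11.5 list or either E14.5 list and 4 without occipital replicate 2. With scaling to list totals there were none in either direction, and the background was 0.0% in both.

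Followed base by base, more of the domains' length added H3K27ac than lost it. Bases in neither E11.5 list and in all 4 E17.5 lists came to 290.8 kb, 5.59% of the domains, and occurred in 256 of them. Bases in both E11.5 lists and in no E17.5 list came to 52.2 kb, 1.00%, in 47 domains, and 931.7 kb, 17.9%, were covered throughout both stages. Added bases alone occurred in 243 domains, lost bases alone in 34, both in 13 and neither in 100. The E11.5 lists were the shortest of the H3K27ac lists, and the part of their length in this count was not tested. Bases were not counted in this way over all loci or in the comparison loci, so nothing particular to the domains is read from them. Over all loci, too, more were called higher than lower in H3K27ac by E17.5 (20.5% and 1.09%).

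More than 50% of the added bases were already in place at E14.5. Of the 290.8 kb added by E17.5, 53.6% lay under H3K27ac in both E14.5 lists, 31.4% in 1 and 15.0% in neither. Of the 52.2 kb lost by E17.5, 39.8% were still covered in both E14.5 lists, 35.2% in 1 and 24.9% in neither. H3K4me2 lay on 46.2% of the added bases in both E11.5 lists, on 25.1% in 1 and on 28.7% in neither, before H3K27ac was called there, and on 89.0% in all 4 E17.5 lists. Of the lost bases, 90.5% had H3K4me2 in both E11.5 lists, and at E17.5 31.5% kept it in all 4 lists, 36.2% in 1 to 3 and 32.4% in none. These shares pool bases over domains, and a few domains weigh most. Of the lost bases, 22.9 kb lay in the 4 domains called lower in H3K27ac by E17.5. The bases that were in no H3K27ac list, 41.3% of the domains' length, carried H3K4me2 in neither E11.5 list at 55.9% and in all 4 E17.5 lists at 35.9%.

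The 103 domains that rose between E11.5 and E17.5 had median H3K27ac shares of 20.4% at E11.5, 41.8% at E14.5, 53.1% in frontal and 49.8% in occipital cortex, values that follow from the choice by that contrast except for E14.5. The longest domain of all, chr1:57002901-57042025 (39125 bp), was among them. H3K27ac covered 5000 and 4175 bp of it at E11.5, 14175 and 6250 bp at E14.5, 27000 and 34600 bp in frontal and 35350 and 11100 bp in occipital cortex. Both E11.5 lists lay below all others, and occipital replicate 2 lay within the E14.5 range. The change from E11.5 to E17.5 was 2.38 on the log2 scale (SE 0.558, adjusted p = 0.0379, limma), and the call was lost when either E11.5 or either frontal list was left out, or under the limit to an equal number of widest regions (2.35). It was 1.34 with scaling to list totals. H3K4me2 grew there as well, from 11350 and 12825 bp at E11.5 to 15150 and 17025 bp at E14.5, 39125 and 37125 bp in frontal and 31975 and 32825 bp in occipital cortex. Its change from E11.5 to E17.5 was 1.53 (SE 0.116, adjusted p = 0.00204, limma), in lists that also set the length of the domain.

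At chr13:83661301-83677600 (16300 bp), H3K27ac covered 1500 and 0 bp at E11.5, 4825 and 2900 bp at E14.5, 9101 and 13850 bp in frontal and 15325 and 10950 bp in occipital cortex. The 3 stages did not overlap, and the change from E11.5 to E17.5 was 4.39 on the log2 scale (SE 0.874, adjusted p = 0.0225, limma), a call lost when any E17.5 list was left out. With 1 E11.5 list at 0 bp, the size of this change depends on the 200 bp added: it was 2.85 without that list (E11.5 replicate 2) and 5.94 without E11.5 replicate 1. H3K27ac at chr3:81934501-81950675 (16175 bp) was short until E14.5, with 1800 and 1775 bp at E11.5 and 3950 and 2450 bp at E14.5. It then reached 12400 and 16050 bp in frontal and 16175 and 4525 bp in occipital cortex (E17.5 against E11.5, log2 change 2.50, SE 0.523, adjusted p = 0.0266, limma), and the call held only when an occipital list was the one left out. It was also lost with equal numbers of widest regions (2.38), and scaling to list totals gave 1.49. H3K4me2 of this domain also lengthened late, from 2850 and 3750 bp at E14.5 to 8550 to 15950 bp at E17.5, in lists that did not overlap (log2 change 1.85, SE 0.177, adjusted p = 0.00653, limma; lost without E14.5 replicate 1).

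The other named rises by E17.5 were at chr1:196443601-196475625 (32025 bp) and chr8:8627926-8662725 (34800 bp). At the first, H3K27ac covered 6575 and 5375 bp at E11.5, 17900 and 16150 bp at E14.5, 18326 and 19475 bp in frontal and 21700 and 10700 bp in occipital cortex, with both E11.5 lists below the rest (log2 change 1.48, SE 0.294, adjusted p = 0.0221, limma). At the second it covered 12875 and 9425 bp at E11.5, 16375 and 14125 bp at E14.5, 24926 and 23150 bp in frontal and 21000 and 16475 bp in occipital cortex (log2 change 0.93, SE 0.186, adjusted p = 0.0229, limma). When covered length was scaled to list totals, the first change was 0.43, no longer called, and the second was -0.13. Both calls held in 4 of the 8 omissions of a replicate, and each was lost without E11.5 replicate 2 or either frontal list, the first also without E11.5 replicate 1 and the second without occipital replicate 1.

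Among the named rises already called at E14.5, chr8:111766001-111777225 (11225 bp) had the smallest adjusted p. H3K27ac was listed at 0 bp there in each E11.5 list, and it covered 6025 and 6600 bp at E14.5, 5400 and 7750 bp in frontal and 7775 and 6725 bp in occipital cortex. The difference from E11.5 to E14.5 had an adjusted p of 0.000215 (limma) and was called with each replicate left out in turn. H3K4me2, which the rule required in every list, covered 2900 and 6875 bp there at E11.5 and 7750 and 8450 bp at E14.5. With a value of 0 on 1 side, no fold is given.

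At chr2:35939176-35962300 (23125 bp), H3K27ac covered 1450 and 925 bp at E11.5, 10975 and 5575 bp at E14.5, 7026 and 7050 bp in frontal and 18800 and 8175 bp in occipital cortex. Both E11.5 lists stood apart from the other 6 (E14.5 against E11.5, log2 change 2.56, SE 0.503, adjusted p = 0.0348, limma), and the call was lost in 5 of the 8 omissions: either E11.5 list, E14.5 replicate 1 and either frontal list. Adding 1000 bp in place of 200 bp also ended it (2.03), as did equal numbers of widest regions (2.40). At chr6:136108076-136124825 (16750 bp), 2775 and 1075 bp at E11.5 became 10075 and 7300 bp at E14.5 and 7150 to 8850 bp in the 4 E17.5 lists (log2 change 2.17, SE 0.413, adjusted p = 0.0308, limma; lost without either E14.5 list or any E17.5 list). At chr8:130879626-130904100 (24475 bp), 4125 and 3275 bp became 9175 and 9025 bp and stayed at 7375 to 9750 bp (log2 change 1.26, SE 0.17, adjusted p = 0.00904, limma; lost without E14.5 replicate 1, when scaled to list totals at 0.53 and with equal numbers of widest regions at 0.98). In all 3 the level reached at E14.5 overlapped that of E17.5.

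The domain chr15:79593926-79606500 (12575 bp) differed from these in what followed. H3K27ac covered 1950 and 2375 bp at E11.5, 9475 and 7950 bp at E14.5, 3050 and 3450 bp in frontal and 4475 and 7675 bp in occipital cortex. The rise to E14.5 was called (log2 change 1.92, SE 0.27, adjusted p = 0.0105, limma; lost without E14.5 replicate 1, or when scaled to list totals at 1.21). The 4 E17.5 lists all lay below both E14.5 lists, but that difference was not called (log2 change -0.96, SE 0.234, adjusted p = 0.141, limma). The only domain called higher at E17.5 than at E14.5 was chr11:103509501-103520200 (10700 bp), with H3K27ac listed at 0 bp at E11.5 in either replicate and at 525 and 0 bp at E14.5, 4175 and 2100 bp in frontal and 4575 and 5275 bp in occipital cortex. Each E17.5 list lay above both E14.5 lists (adjusted p = 0.0462, limma). Its call was lost in 7 of 8 omissions, all but that of E14.5 replicate 1, and also with scaling to list totals and with loci covered by at least 1 list.

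Loss of H3K27ac was called in 4 domains between E11.5 and E17.5. At chr6:23192326-23206275 (13950 bp), H3K27ac covered 12375 and 7350 bp at E11.5, 4600 and 3725 bp at E14.5, 0 bp in both frontal lists and 0 and 600 bp in occipital cortex. The values stepped down at each stage without overlap, and the fall by E17.5 was called with each replicate left out in turn (adjusted p = 0.00318, limma). H3K4me2, which the rule required in every list, shrank with it from 13250 and 13950 bp at E11.5 to 4575 and 7875 bp at E14.5 and 2875 to 5050 bp at E17.5 (E17.5 against E11.5, log2 change -1.71, SE 0.252, adjusted p = 0.0061, limma, lost without E11.5 replicate 1). This domain is also 1 of the 2 called lower between E14.5 and E17.5 (adjusted p = 0.0305, limma), a call that held only when an occipital list was the one left out and was lost with scaling to list totals.

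At chr13:23588951-23599950 (11000 bp), the domain with the smallest H3K27ac share of all, H3K27ac covered 1050 and 875 bp at E11.5, 675 and 575 bp at E14.5 and 0 bp in the 4 E17.5 lists. It was the other domain called lower between E14.5 and E17.5 (adjusted p = 0.0147, limma), and it was called lower at E17.5 than at E11.5 as well (adjusted p = 0.00175, limma), both with each replicate left out in turn. These stretches were short, and when every list was limited to the same number of its widest regions the log2 difference between E14.5 and E17.5 was 0. Scaling to list totals also ended the call between E14.5 and E17.5. H3K4me2 of this domain covered 8700 and 11000 bp at E11.5 and 3525 to 8450 bp at E17.5 and was not called different (adjusted p = 0.367, limma).

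At chr19:25676001-25698075 (22075 bp), H3K27ac was as long at E14.5 as at E11.5 and short at E17.5. It covered 15325 and 14550 bp at E11.5, 17475 and 12850 bp at E14.5, 2400 and 550 bp in frontal and 575 and 4100 bp in occipital cortex. The first 2 stages overlapped and both stood above all E17.5 lists (E17.5 against E11.5, log2 change -3.25, SE 0.829, adjusted p = 0.0485, limma), but the call held only when occipital replicate 2 was the one left out. Equal numbers of widest regions (-4.31), loci covered by at least 1 list and the replicate number as a block also ended it. The difference between E14.5 and E17.5 was not called (adjusted p = 0.161, limma). H3K4me2 fell from 20075 and 21975 bp at E11.5 to 4900 and 4700 bp in frontal and 10600 and 12050 bp in occipital cortex (log2 change -1.48, SE 0.149, adjusted p = 0.00374, limma; lost without E11.5 replicate 1). At chr19:44579376-44590725 (11350 bp), H3K27ac covered 5250 and 5275 bp at E11.5, 2150 and 2000 bp at E14.5, 950 and 0 bp in frontal and 0 bp in both occipital lists (E17.5 against E11.5, adjusted p = 0.0122, limma; lost without either E11.5 list). Both E14.5 lists lay below both E11.5 lists and above all E17.5 lists.

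**Figure D4:**
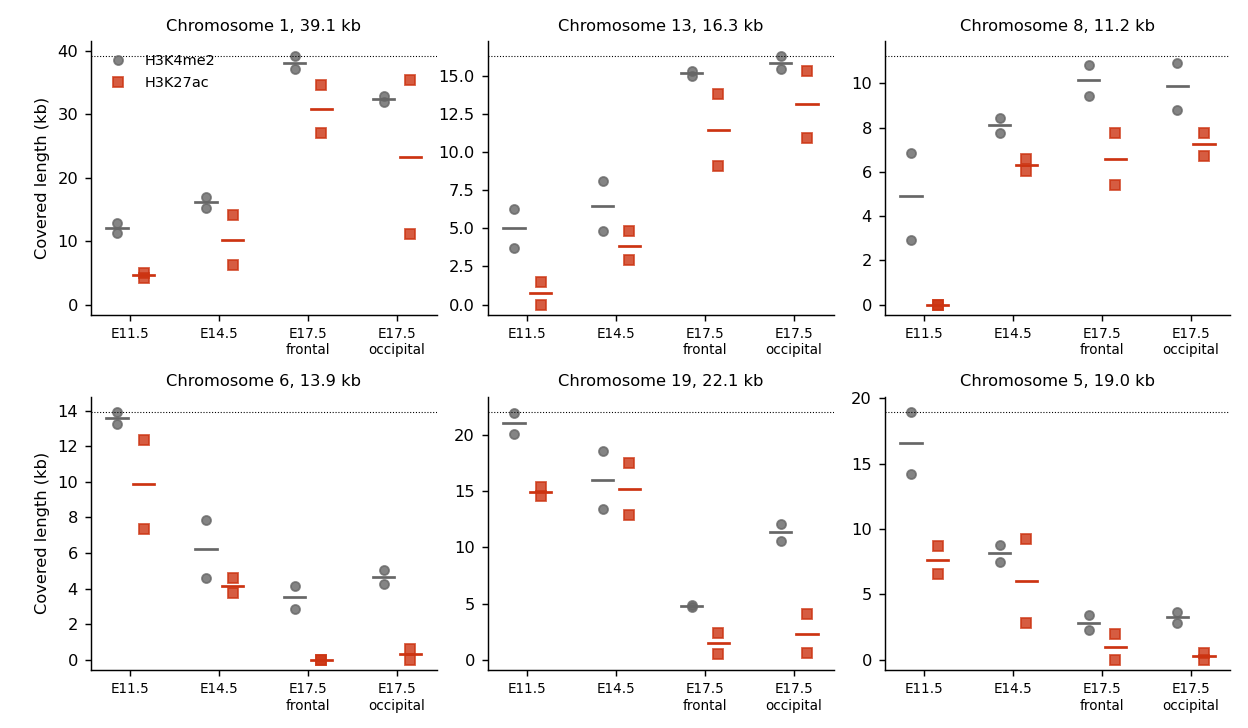
Covered length (kb) of H3K4me2 (grey circles) and H3K27ac (red squares) by tissue in 6 domains, 1 point per list with a bar at the mean of 2 lists, and the domain length as a dotted line; the vertical scale differs between panels. The top row shows rises in H3K27ac on chromosomes 1, 13 and 8, the last from 0 bp at E11.5, and the bottom row shows falls on chromosomes 6, 19 and 5, the last of which was called in H3K4me2 and not in H3K27ac.

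H3K4me2 of the domains was longest at E17.5. The median covered share was 45.4% and 64.7% in the E11.5 lists, 48.2% and 61.8% in the E14.5 lists, 74.98% and 65.4% in the frontal lists and 81.0% and 98.7% in the occipital lists. As tissue means these were 55.0% ± 13.6 (SD, n = 2), 55.0% ± 9.67, 70.2% ± 6.78 and 89.8% ± 12.5. The lists of E11.5 and E14.5 overlapped, and both occipital lists stood above all others. Since H3K4me2 set the length of the domains, and the longest list most of all, its comparisons are descriptive. The tissue with the most H3K4me2 was occipital cortex in 300 of the 390, E11.5 in 58, frontal cortex in 29 and E14.5 in 3.

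From E11.5 to E14.5, H3K4me2 rose in 7 domains and fell in 3 (limma, adjusted p below 0.05), against 1.87% called higher and 2.08% called lower over all 63453 loci tested. The rises numbered 13 without E11.5 replicate 2, 0 without E11.5 replicate 1, 2 without E14.5 replicate 2 or either frontal list and 3 without occipital replicate 1, and there were no falls without E11.5 replicate 1. Both E14.5 lists exceeded both E11.5 lists in 74 domains and the reverse held in 52, against 6.08% and 11.7% over all loci. Scaled to list totals, 13 rose and 2 fell (3.33% and 0.513%), against 2.47% and 2.45% over all loci, with a median log2 change of 0.21 in place of 0.05 and of 0 over all loci.

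From E14.5 to E17.5, 69 domains rose in H3K4me2 and 4 fell (limma, adjusted p below 0.05), against 13.4% called higher and 0.162% called lower over all loci. The median log2 change was 0.46, close to the 0.47 of all loci and above the 0.22 of the comparison loci, of which 24 of 557 rose. All E17.5 lists exceeded both E14.5 lists in 203 domains and the reverse held in 8, against 22.3% and 0.586% over all loci. The 69 became 0 without E14.5 replicate 1, 17 without occipital replicate 2, 26 without frontal replicate 1, 32 without occipital replicate 1 and 44 without frontal replicate 2. The 4 falls became 0 without E14.5 replicate 1, 1 without E14.5 replicate 2 and 2 without either E11.5 list, frontal replicate 2 or either occipital list. Scaled to list totals, 9 rose and 13 fell (2.31% and 3.33%), against 12.7% and 0.815% over all loci, with a median of -0.07 against 0.06.

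From E11.5 to E17.5, 138 domains rose and 18 fell in H3K4me2 (limma, adjusted p below 0.05), against 19.5% called higher and 3.13% called lower over all loci. These came to 35.4% and 4.62% of the domains, from which nothing is read because H3K4me2 length was part of the rule. The median log2 change was 0.52, against 0.37 over all loci and 0.30 in the comparison loci. All E17.5 lists exceeded both E11.5 lists in 199 domains and the reverse held in 33, against 20.9% and 7.04% over all loci. Both directions rest on the E11.5 lists: rises numbered 23 and falls 7 without E11.5 replicate 1, and falls numbered 8 without E11.5 replicate 2. Rises also dropped to 83 without occipital replicate 2 and 89 without frontal replicate 1, and falls to 8 without occipital replicate 1 and 10 without frontal replicate 2. In the fit with all lists, 83 of the rises were among the 224 domains that also met the rule without E17.5 occipital replicate 2. Scaled to list totals, 75 rose and 40 fell (19.2% and 10.3%), against 17.4% and 5.95% over all loci, with a median of 0.15 against 0.06.

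**Figure D5:**
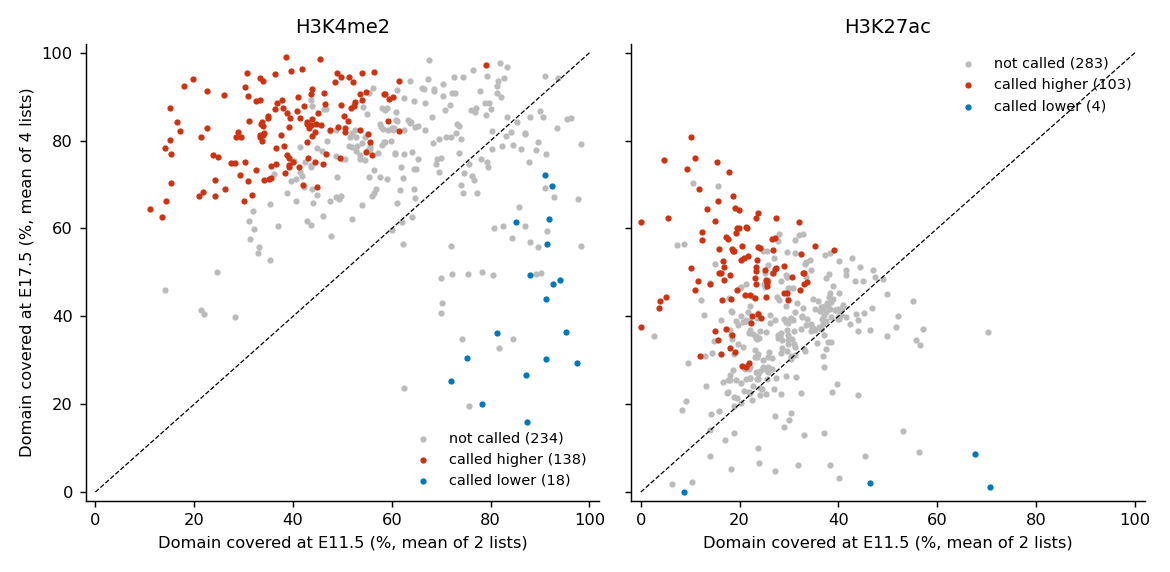
Mean covered share of each domain at E17.5 (vertical axis, %, 4 lists) against E11.5 (horizontal axis, %, 2 lists) for H3K4me2 (left) and H3K27ac (right); colours mark limma calls and the dashed line equal shares. The 18 domains called lower in H3K4me2 sit at 72.1% or more at E11.5, and the 103 called higher in H3K27ac at 39.1% or less.

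Of the 103 domains called higher in H3K27ac between E11.5 and E17.5, 71 (68.9%) were also called higher in H3K4me2, and these are 51.4% of the 138. Among all the domains 35.4% were called higher in H3K4me2, and this overlap was not tested. Joint calls were not counted over all loci or in the comparison loci, and H3K4me2 length was part of the rule. Nothing particular to the domains is therefore read from the overlap. The other 32 were called higher in H3K27ac alone, and 67 in H3K4me2 alone. Of the 18 domains that fell in H3K4me2, 3 fell in H3K27ac as well, and no domain was called in opposite directions. An example of both rises was chr9:112125676-112141700 (16025 bp), where H3K4me2 covered 2675 and 3100 bp at E11.5, 7050 and 7250 bp at E14.5 and 14300 to 15575 bp at E17.5. The 3 stages did not overlap (E17.5 against E11.5, log2 change 2.28, SE 0.0845, adjusted p = 0.00137, limma), and the call held with each replicate left out in turn. These H3K4me2 lists also set the domain length, so the call is descriptive. H3K27ac there covered 2250 and 2025 bp, then 5950 and 4025 bp, then 7200 to 12500 bp (E17.5 against E11.5, log2 change 2.14, SE 0.274, adjusted p = 0.0047, limma; held in the same omissions, and 1.13 when scaled to list totals).

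The domains that fell in H3K4me2 had a median coverage of 91.1% at E11.5, 48.7% at E14.5, 40.8% in frontal and 46.9% in occipital cortex. The high value at E11.5 follows from the choice by this contrast, since the length of a domain is the union of its H3K4me2 lists. At chr5:140010776-140029775 (19000 bp), H3K4me2 covered 14225 and 19000 bp at E11.5, 7500 and 8800 bp at E14.5, 3400 and 2300 bp in frontal and 3625 and 2850 bp in occipital cortex. The 3 stages did not overlap, and the fall by E17.5 was called with each replicate left out in turn (log2 change -2.38, SE 0.21, adjusted p = 0.00296, limma, and -3.71 with equal numbers of widest regions). As the same lists set the domain length, this call is descriptive. H3K27ac covered 8675 and 6550 bp at E11.5, 9250 and 2825 bp at E14.5 and 1975, 0, 0 and 525 bp at E17.5, a difference that was not called (adjusted p = 0.0675, limma).

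Other domains fell in H3K4me2 early and then held their level. At chr10:29244926-29257075 (12150 bp), H3K4me2 covered 10375 and 12150 bp at E11.5, 5075 and 5175 bp at E14.5 and 5500 to 6025 bp at E17.5 (E14.5 against E11.5, log2 change -1.10, SE 0.101, adjusted p = 0.00605, limma; lost without E11.5 replicate 1, or when scaled to list totals at -0.95). H3K27ac there covered 3250 to 5700 bp in all lists, of which 97.3% lay on 1 side. At chr5:120873801-120891325 (17525 bp), H3K4me2 went from 15500 and 17475 bp at E11.5 to 8250 and 8975 bp at E14.5 and 8150 to 9000 bp at E17.5 (log2 change -0.92, SE 0.098, adjusted p = 0.00923, limma; lost without E11.5 replicate 1, or when scaled to list totals at -0.77). H3K27ac of that domain covered 11325 and 8425 bp at E11.5, 6000 and 1375 bp at E14.5 and 0 to 2975 bp at E17.5 and was not called (adjusted p = 0.137, limma).

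Frontal and occipital cortex at E17.5 were not told apart by H3K27ac on the domains. No domain was called in either direction (limma, adjusted p below 0.05), against 0.599% called higher in frontal and 0.495% called higher in occipital cortex over all loci, and 9 domains had an unadjusted p below 0.05. Leaving out occipital replicate 1 gave 1 call each way. Both frontal lists exceeded both occipital lists in 45 domains and the reverse held in 21, against 9.79% and 8.09% over all loci. The largest such differences in bp included chr8:8627926-8662725, higher in frontal cortex with the values given above, and chr1:140730826-140746475 (15650 bp), with 3625 and 3375 bp in frontal and 4250 and 10375 bp in occipital cortex. Neither was called.

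H3K4me2 separated the areas more often, with 1 domain called higher in frontal and 18 called higher in occipital cortex (limma, adjusted p below 0.05), against 0.698% and 9.23% over all loci. Nothing is read from these shares, since the occipital lists set much of the length of the domains. Both occipital lists exceeded both frontal lists in 233 domains and the reverse held in 18, against 42.6% and 4.92% over all loci. The 18 became 0 without either occipital list, 2 without frontal replicate 2 and 10 without frontal replicate 1, and the 1 was lost without any of these 4 lists. Among the 224 domains that also met the rule without E17.5 occipital replicate 2, 11 were called higher in occipital cortex. These 11 calls come from the fit that includes that replicate. Scaled to list totals, 8 domains (2.05%) were called higher in frontal cortex and none in occipital cortex, against 0.845% and 8.98% over all loci. The median log2 difference, frontal minus occipital, was then 0.20 in place of -0.26, and 0.065 over all loci.

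The domain called higher in frontal cortex was chr14:49273826-49295200 (21375 bp), where H3K4me2 covered 10150 and 8575 bp in frontal and 2875 and 4375 bp in occipital cortex (log2 difference 1.34, SE 0.22, adjusted p = 0.0142, limma). It had covered 17575 and 21375 bp at E11.5 and 9825 and 10825 bp at E14.5, so that the frontal lists were near the E14.5 lists and the occipital lists below them. The domain chr13:77265351-77277625 (12275 bp) was the reverse, with 3300 and 2975 bp in frontal and 12000 and 9150 bp in occipital cortex (log2 difference -1.68, SE 0.342, adjusted p = 0.036, limma), and 2575 to 5075 bp at the earlier stages. H3K27ac of that domain covered 1600 to 3000 bp in all 8 lists. Both calls were lost when any of the 4 E17.5 lists was left out, and with loci covered by at least 4 lists. Equal numbers of widest regions gave 2.30 at the first, still called, and ended the call at the second (-1.57), as scaling to list totals did (-1.22).

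At chr9:45177076-45191225 (14150 bp), H3K4me2 covered 6425 and 5975 bp in frontal and 11775 and 13950 bp in occipital cortex (log2 difference -1.02, SE 0.198, adjusted p = 0.0292, limma; lost without any of these lists), while H3K27ac covered 9124 and 6250 bp in frontal and 7750 and 4900 bp in occipital cortex, with overlap. At chr1:140730826-140746475, H3K4me2 covered 7850 and 7600 bp in frontal and 13200 and 15025 bp in occipital cortex (log2 difference -0.85, SE 0.113, adjusted p = 0.00558, limma; lost without either occipital list). It had covered 13650 and 15275 bp at E11.5 and 11475 and 12600 bp at E14.5, so that the frontal lists were the low ones. Both calls were lost with loci covered by at least 4 lists and with scaling to list totals, at -0.56 and -0.38.

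Some of the longest domains had no call in H3K27ac. At chr1:39972776-40010450 (37675 bp), the second longest, H3K27ac covered 7725 and 5600 bp at E11.5, 12150 and 10550 bp at E14.5, 7225 and 10650 bp in frontal and 8875 and 7400 bp in occipital cortex, of which 91.1% lay on 1 side. No difference in either mark was called there. At chr13:100260026-100287950 (27925 bp), H3K27ac covered 14375 and 10175 bp at E11.5, 14850 and 14475 bp at E14.5 and 8725 to 12475 bp at E17.5. Both E14.5 lists were the highest, no difference was called, and the bases were spread evenly, with 51.4% on the fuller side. At chr17:10490701-10515850 (25150 bp), H3K27ac covered 6900 and 3200 bp at E11.5 and 8425 to 14025 bp at E17.5, without overlap but not called (adjusted p = 0.109, limma). H3K4me2 there was called, with 12275 and 15675 bp at E11.5, 12850 and 13800 bp at E14.5, 17025 and 16450 bp in frontal and 23475 and 23150 bp in occipital cortex. All E17.5 lists lay above the others (E17.5 against E14.5, log2 change 0.56, SE 0.123, adjusted p = 0.0376, limma, held only without an E11.5 list). The change from E11.5 (0.50, SE 0.123, adjusted p = 0.0378, limma) held only without E11.5 replicate 2, and was 0.33 without E11.5 replicate 1. With scaling to list totals these changes were 0.03 and 0.13, neither called, and adding 1000 bp or taking loci covered by at least 4 lists also ended both calls, as equal numbers of widest regions did the first.

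Some domains lie close enough together to count as neighbours rather than as separate cases. Of the 390, 25 were within 100 kb of another domain and 12 within 20 kb. The closest pair, chr4:13667401-13695700 (28300 bp) and chr4:13696801-13718575 (21775 bp), was 1100 bp apart, and both rose in H3K27ac. The first had 5725 and 3800 bp at E11.5 and 12825 to 15550 bp at E17.5 (log2 change 1.59, SE 0.257, adjusted p = 0.0109, limma; lost without E11.5 replicate 2, and 0.55 when scaled to list totals). The second had 4250 and 1125 bp at E11.5 and 11250 to 14550 bp at E17.5 (log2 change 2.38, SE 0.536, adjusted p = 0.0337, limma; held only without E11.5 replicate 1, 1.50 without E11.5 replicate 2 and 1.38 when scaled). In addition, 30 domains lay within 100 kb of a comparison locus.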

How the data were processed

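Called regions of H3K27ac and H3K4me2 from 16 mouse ChIP-seq samples were used, 8 lists per mark, 2 replicates in each of 4 tissues. The authors deposited them as positions only (chromosome, start and end), so the unit is other, with no score, count or depth per region. Coordinates fall within mm9. The submitters' processing notes name Bowtie 0.12.9 and the builds mm9 and hg19, while the sources used here give no region caller and no threshold. The input samples and the rhesus lists were not analysed here.

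Covered length in bp was the value used, per locus and list. Log2 of covered bp plus 200 bp was fitted per mark with limma 3.58.1 (R 4.3.3; lmFit and eBayes with a trend, 1 mean per tissue, loci covered by at least 2 lists of the mark), with Benjamini-Hochberg adjustment over all loci of a contrast and calls at an adjusted p below 0.05. E17.5 was the mean of frontal and occipital cortex. Replicates are biological per the series' design text, p-values measure the spread between these lists, and leaving out a list leaves its tissue with 1 list, assumed to vary like the others. The contrasts of stages share lists. The fit was also run on simulated normal values with the fitted spread. These held no absent regions, no differences in list length and no shared shifts of replicates, so that run cannot test those. Core, profile and side values were computed with Python 3.11.15, numpy 2.4.6 and pandas 2.3.3 and have no test. Named loci were the 8 longest, up to 5 called each way per contrast by difference in bp (where none was called, up to 2 each way whose lists did not overlap), the largest and smallest H3K27ac shares and the neighbours of each threshold. Alternatives were another pseudocount, filter, merging distance, scaling to list totals, equal numbers of the widest regions, the replicate number as a block and each replicate left out. The domains and lists were chosen with earlier results of these data known. The planned gene lists and cell type markers were not run because the annotation at hand is of another build, so the cortex label was not checked against marker genes.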

Additional observations from a re-analysis of the deposited data

How the results depend on the processing

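Of 267 counts recomputed under an alternative, 173 stayed within 1.5 times the main count and 94 did not. The number of domains was 230 with an H3K27ac share under 40%, 194 at 12000 bp or more and 229 to 408 with 1 replicate left out. Counts are given as rises, then falls. Shares over all loci were not counted for the other pseudocount, filters, merging distance, replicate block or omitted lists. Counts under those settings, here or above, are therefore not read as particular to the domains. Scaled to list totals, H3K27ac gave 5 and 23 (E14.5 against E11.5), 0 and 0 (E17.5 against E14.5) and 23 and 173 (E17.5 against E11.5), and H3K4me2 gave 13 and 2, 9 and 13 and 75 and 40, with 8 and 0 for frontal against occipital cortex. Over all loci the same scaling gave 11201 rises and 15523 falls in H3K27ac by E17.5, and the shares for the other contrasts stand beside the counts above. Under this scaling 2 named rises from E11.5 to E17.5 in H3K27ac reversed, to -0.131 at chr8:8627926-8662725 and -0.046 at chr15:79593926-79606500. With equal numbers of the widest regions, H3K27ac gave 2 falls for E14.5 against E11.5 (0.513%, against 1.5% over all loci). For E17.5 against E14.5 it gave 2 and 4 (0.513% and 1.03%, against 3.23% and 1.88%). H3K4me2 gave 19 rises for E14.5 against E11.5 (4.87%, against 3.71%). It gave 2 falls for E17.5 against E14.5 (0.513%, against 1.64%).

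Rises in H3K27ac after E14.5 were 0 with loci covered by at least 1 list and 2 with regions up to 1000 bp apart merged. For H3K4me2, adding 1000 bp gave 4 rises by E14.5 and then 2 falls. A filter of at least 1 list gave 35 rises and 2 falls after E14.5 and 2 domains higher in frontal cortex, and a filter of at least 4 lists gave 2 falls after E14.5 and 0 and 0 between areas. A filter also changes the number of loci over which p is adjusted. Among the 224 domains that also met the rule without E17.5 occipital replicate 2, chosen after seeing the data, H3K27ac rises were 13, 0 and 57 for the 3 contrasts of stages, and H3K4me2 gave 83 rises by E17.5 and 11 domains higher in occipital cortex. The fits behind these counts included that replicate.

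With the replicate number as a block, H3K27ac gave 0 and 0 after E14.5, and H3K4me2 gave 2 falls after E14.5 and 2 domains higher in frontal cortex; other counts stayed within 1.5 times. Across loci, same-numbered replicates deviated with correlations of -0.184 to 0.242. A correlation leaves out any shift of a whole list, so it cannot decide whether the numbers pair the samples. In H3K4me2, replicate 2 covered more in 384 domains at E11.5, 373 at E14.5, 332 in occipital and 57 in frontal cortex. Whether same-numbered lists share a source was not tested.

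With 1 replicate left out, H3K27ac rises and falls ranged over 10 to 54 and 0 to 1 (E14.5 against E11.5), 0 to 5 and 1 to 4 (E17.5 against E14.5), 39 to 96 and 2 to 6 (E17.5 against E11.5) and 0 to 1 and 0 to 1 (frontal against occipital). H3K4me2 ranged over 0 to 13 and 0 to 4, 0 to 89 and 0 to 3, 23 to 149 and 7 to 18, and 0 to 1 and 0 to 19. Of 84 calls in named domains, 19 held in all 8 omissions and 65 were lost in at least 1. The causes were not tested. Depth is unknown, so a stretch without a call cannot be told from one below the authors' threshold.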
